A study of Mus musculus with 6 samples.

Results

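Among 54356 mouse genes with at least 1 matched transcript, 10 genes known from male germ cells were followed in epididymal white adipose tissue, a visceral fat depot attached to the epididymis. They are Prm1, Prm2, Tnp1, Tnp2, Ldhc, Pgk2, Odf1, Smcp, Akap4 and Rec8, and all 10 were found in the annotation. The genes were picked because of their levels in these same libraries, so their levels, and any difference between the groups in them, are a description and are not tested here. The 6 polyA RNA-seq libraries come from 6 male wild-type C57BL/6N mice aged 20 weeks, with 3 mice labelled cold (7, 12 and 16) and 3 labelled ctrl (5, 6 and 10). Cold exposure meant single housing at 4 °C for 24 h before tissue collection, and animals were otherwise kept at 22 to 24 °C. The treatment text reads the same for all 6 samples, so the groups rest on the labels cold and ctrl, and how the controls were housed during those 24 h is not stated. All mice share strain, sex and age, no group carries a genetic change, and the fat sample of each animal was homogenised whole for its own library, so p-values of the fit across genes measure the spread between mice. Library totals ran from 19735167 to 28608052 estimated counts. The summed level of 8 mature adipocyte markers was 33226 to 35907 CPM (counts scaled to library size) in cold libraries and 32549 to 36942 CPM in ctrl libraries, so all 6 carry the labelled tissue's RNA; of these 8 genes 1 rose (Lep) and 1 fell (Cfd) by edgeR.

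Spermatogenesis runs from dividing spermatogonia through meiotic spermatocytes to haploid spermatids, which reshape into sperm. Late in this course histones are replaced first by transition proteins (Tnp1, Tnp2) and then by protamines (Prm1, Prm2), small basic proteins that pack the sperm nucleus. Germ cells also replace housekeeping enzymes with their own forms, such as the lactate dehydrogenase subunit Ldhc and the phosphoglycerate kinase Pgk2, and build a tail from outer dense fibres (Odf1), a fibrous sheath (Akap4) and a mitochondrial sheath (Smcp). Rec8 is a kleisin, the ring-closing subunit of the cohesin that holds sister chromatids together in meiosis. Adipocytes are not known for these programmes, whereas the testis and epididymis lie beside this fat pad.

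Of the 10 genes, 3 lie together on chromosome 16 (GRCm38, all on the minus strand): Tnp2 at 10787936 to 10788660, Prm2 at 10791380 to 10796134 and Prm1 at 10796326 to 10805839, with Prm3 between Tnp2 and Prm2. The others are spread over the genome, with Tnp1 on chromosome 1 (73015074 to 73015909), Smcp on 3 (92583867 to 92588997), Ldhc on 7 (46861203 to 46878142), Rec8 on 14 (55618037 to 55625395), Odf1 on 15 (38219203 to 38226735), Pgk2 on 17 (40207015 to 40208640) and Akap4 on X (7067519 to 7078609). Upstream sequence is shown for 3 of the nuclear packaging genes, whose counts all lay highest in cold 7 and cold 12. In these 3 the RefSeq start lies within 10 bases of the start of the GENCODE transcript that took nearly all counts (Prm2-201, Tnp2-201 and Tnp1-201), whereas the window of Prm1 runs further into the first exon of Prm1-201. Each line gives the 100 bases before the RefSeq start (GRCm38.p6, minus strand, 5′ to 3′), and capitals mark TATAA, the core of a TATA box, on either strand. The windows are chr16:10792106-10792205 for Prm2, chr16:10788656-10788755 for Tnp2 and chr1:73015900-73015999 for Tnp1.
Prm2: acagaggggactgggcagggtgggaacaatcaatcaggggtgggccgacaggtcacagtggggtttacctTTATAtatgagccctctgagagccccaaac
Tnp2: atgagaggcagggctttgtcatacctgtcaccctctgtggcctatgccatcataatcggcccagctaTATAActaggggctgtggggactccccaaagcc
Tnp1: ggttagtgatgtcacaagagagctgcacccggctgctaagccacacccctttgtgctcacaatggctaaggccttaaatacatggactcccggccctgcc
In Prm2 the match begins 30 bases and in Tnp2 33 bases before the start, and the Tnp1 window holds no match. RefSeq rows were found for 9 of the 10 genes, all but Odf1. TATAA on either strand was found in this window in 4 of them (Prm1, Prm2, Tnp2 and Ldhc), against 10.2% of all 32851 promoter rows. TGACG, the core of the cAMP response element, was found on either strand in Ldhc among them, against 10.5% of all rows. TCCCGC, a core sequence of E2F sites, was found on either strand in Rec8 among them, against 9.42% of all rows.

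Transcripts of all 9 genes other than Rec8 were seen mainly in cold 7 and cold 12. Their summed estimated counts were 1721 in cold 7, 1390 in cold 12 and 113 in cold 16, against 2 in ctrl 5, 94 in ctrl 6 and 27 in ctrl 10. Scaled to library size this was 75.3, 54.7 and 3.95 CPM in the cold libraries and 0.0826, 4.20 and 1.39 CPM in the controls. The cold group was thus divided, and cold 16 stood at the level of ctrl 6, with exact 95% Poisson intervals of 3.25 to 4.74 CPM and 3.40 to 5.14 CPM. These intervals, all others below and the limit of 3 counts set for a count of 0 cover counting error only. In bulk tissue, fewer cells of a type and less RNA per cell cannot be told apart.

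**Figure D1:**
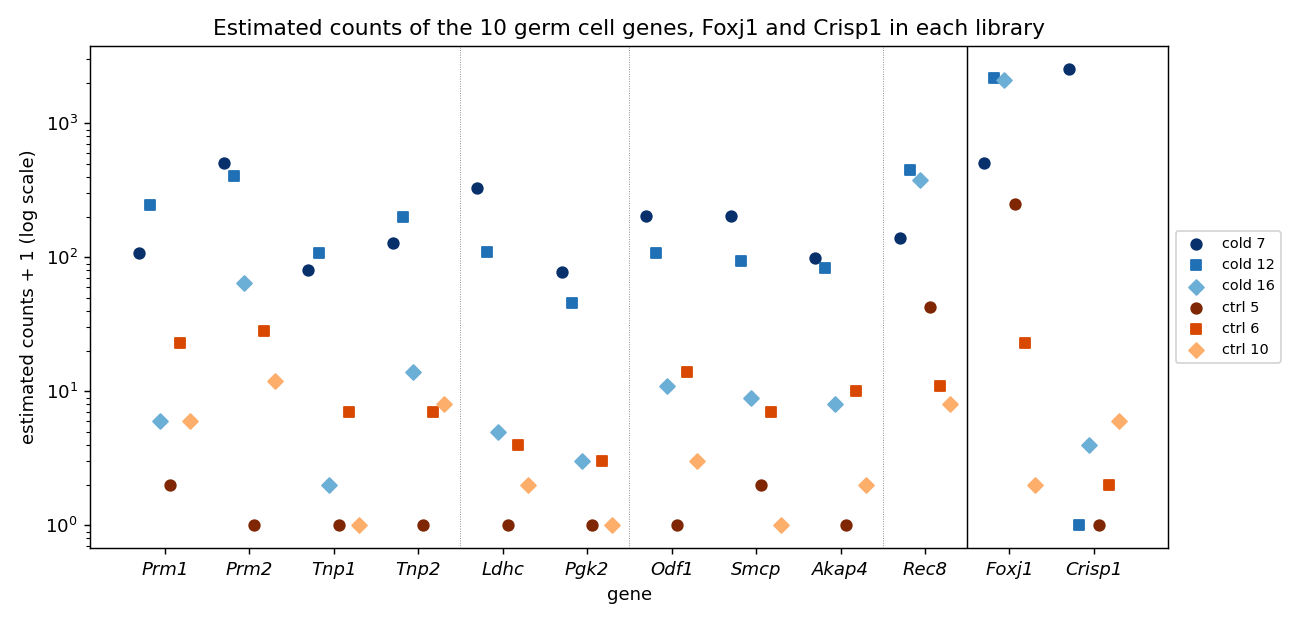
Estimated counts plus 1 (log axis) of the 10 germ cell genes, of Foxj1 and of Crisp1, with 1 point per library, cold mice in blue and ctrl mice in orange to brown. For the 9 genes left of Rec8 the cold 7 and cold 12 points lie highest, whereas for Rec8 and Foxj1 the cold 16 point lies beside that of cold 12, and for Crisp1 cold 7 alone lies high.

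Among the 9 genes other than Rec8, Prm2 had the most counts in each of the cold libraries. Prm2 had 501, 406 and 63 counts in cold 7, cold 12 and cold 16, against 0, 27 and 11 in ctrl 5, ctrl 6 and ctrl 10. Prm1 had 106, 244 and 5 counts in the cold libraries, against 1, 22 and 5 in the controls. The 2 protamines therefore did not keep the same order, since Prm2 was highest in cold 7 and Prm1 in cold 12, and cold 16 lay above every control for Prm2 and below ctrl 6 for Prm1. Tnp1 had 80, 106 and 1 counts in the cold, against 0, 6 and 0 in controls. Tnp2 had 127, 198 and 13 counts in the cold, against 0, 6 and 7 in controls. Both transition proteins were highest in cold 12, and cold 16 stood at or near the controls. Per length, Prm2 was the highest of the 10 genes in cold 7 (71.0 TPM, a level scaled for transcript length) and in cold 12 (51.5 TPM), where Prm1 came next (46.4 TPM), whereas in cold 16 Rec8 was higher (11.2 TPM) than Prm2 (6.87 TPM).

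The germ cell forms of the glycolytic enzymes were highest in cold 7 and next in cold 12. Ldhc had 327, 108 and 4 counts in cold 7, cold 12 and cold 16, against 0, 3 and 1 in ctrl 5, ctrl 6 and ctrl 10. Pgk2 had 77, 45 and 2 counts in the cold, against 0, 2 and 0 in controls. For both genes cold 16 and every control held 4 counts or fewer. Their widely expressed counterparts were not divided in this way: Ldha had 16547, 17351 and 24088 counts in the cold and 16586, 17494 and 13473 in controls, and its log2 fold change was 0.06 (SE 0.10), with an adjusted p of 0.837 in the edgeR test. Pgk1 stood at 0.27 (SE 0.08, adjusted p = 0.133 by edgeR). Of the 5 counterparts tested by edgeR none was called, and DESeq2 called 0 of them. At an unadjusted p under 0.05 by edgeR stood 2 of the 5 counterparts, beside 3148 of all 17852 genes tested. The sixth gene of that list, Akap3, is itself a sperm gene, was too low for the edgeR test and was divided like Ldhc (115, 41 and 1 counts in the cold, 0, 2 and 1 in controls). No stretch of 50 bases, the read length, in a transcript of any of the 10 genes occurred in the same orientation in a transcript of another gene, so Ldhc and Pgk2 reads can be told from those of Ldha and Pgk1.

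Tail genes were likewise seen mainly in cold 7 and cold 12. Odf1 had 203, 107 and 10 counts in cold 7, cold 12 and cold 16, against 0, 13 and 2 in ctrl 5, ctrl 6 and ctrl 10. Smcp, whose protein lies in the sheath of mitochondria around the sperm midpiece, had 202, 93 and 8 counts in the cold, against 1, 6 and 0 in controls. Akap4, which anchors protein kinase A in the fibrous sheath, had 98, 83 and 7 counts in the cold, against 0, 9 and 1 in controls. In all 3 genes cold 7 was highest and cold 12 next, and for Odf1 and Akap4 ctrl 6 lay above cold 16 after scaling. Over the 9 genes other than Rec8, ctrl 6 lay above cold 16 in 5, was the highest control in 8, and ctrl 5 had no count in 7.

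The libraries with more counts also differed in which of the 9 genes made up those counts. Prm1, Prm2, Tnp1 and Tnp2 together took 47.3% of the 1721 counts in cold 7 (exact 95% binomial interval 44.9 to 49.7%) and 68.6% of the 1390 counts in cold 12 (66.1 to 71.1%). In the sparser libraries this share was 72.6% in cold 16 (63.4 to 80.5%), 64.9% in ctrl 6 (54.4 to 74.5%) and 85.2% in ctrl 10 (66.3 to 95.8%), so cold 7 lay below each of these 4 libraries with no overlap of intervals. Ldhc and Pgk2 together took the reverse course, with 23.5% in cold 7 (21.5 to 25.6%), 11.0% in cold 12 (9.41 to 12.8%), 5.31% in cold 16 and 5.32% in ctrl 6. With 1 mouse behind each value, these intervals compare libraries and not conditions. Within the protamines, Prm1 was 17.5% of Prm1 and Prm2 in cold 7 (14.5 to 20.7%), 37.5% in cold 12 (33.8 to 41.4%) and 7.35% in cold 16 (2.43 to 16.3%), against 44.9% in ctrl 6 (30.7 to 59.8%).

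**Figure D2:**
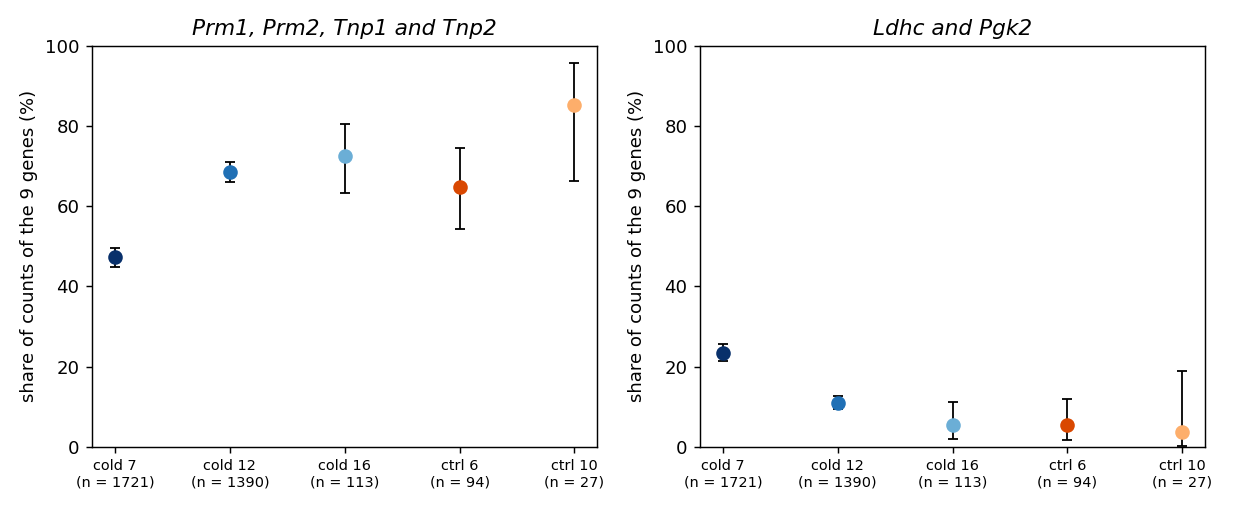
Share, in percent, of the summed counts of the 9 genes other than Rec8 that fell to the nuclear packaging genes (left) and to Ldhc with Pgk2 (right), with exact 95% binomial intervals as bars and the summed counts as n. Cold 7 holds the lowest packaging share, 47.3%, and the highest share of the 2 enzymes, 23.5%; ctrl 5 is left out because it holds 2 counts.

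Gene by gene, the level in cold 7 relative to cold 12 ran from 3.37 for Ldhc (95% interval 2.70 to 4.23), through 2.42 for Smcp, 2.11 for Odf1, 1.90 for Pgk2, 1.37 for Prm2 and 1.31 for Akap4, to 0.840 for Tnp1, 0.714 for Tnp2 and 0.483 for Prm1 (0.381 to 0.610). Rec8 stood lower still, at 0.341 (0.279 to 0.413). The same ratio was then read in lists of other germ cell genes, chosen by their known roles with earlier results of these data known. Of 54 further spermatid and sperm genes 50 were higher in cold 7 than in cold 12 (median ratio 2.09), against 47.5% of 20661 genes with at least 10 counts in both libraries together. The acrosomal protein gene Acrv1 had 30 counts in cold 7 and 3 in cold 12, and the sperm calcium channel subunit Catsper1 had 27 and 0. Hils1, a spermatid linker histone, had 54 and 22 counts, and the fibrous sheath protein gene Akap3 had 115 and 41.

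Some genes of earlier germ cells were lower in cold 12 by a wider margin, whereas others of the same lists were higher there. The synaptonemal complex gene Sycp1 had 44 counts in cold 7 and 2 in cold 12, a ratio of 24.5 (95% interval 6.39 to 208), and Syce1 of the same structure had 59 and 4. The piRNA pathway gene Piwil1 had 117 and 11 counts (ratio 11.8, 6.38 to 24.4), the germ cell RNA helicase Ddx4 had 90 and 12, and Mael had 150 and 36. In cold 16 these 5 genes had 0, 1, 0, 9 and 4 counts. As lists, 17 of 22 meiotic prophase genes were higher in cold 7 than in cold 12 (median ratio 1.58), as were 15 of 20 germ cell and spermatogonia genes (median 2.11). The excess in cold 7 was not limited to germ cell lists, since 8 of 10 Sertoli cell markers (median 1.60), 6 of 7 Leydig cell markers (1.81) and 11 of 13 epididymal duct genes (25.6) were also higher there. The meiotic and the germ cell lists also hold genes at even levels in the 2 libraries, such as Mlh3 (331 and 379 counts), a mismatch repair gene used outside meiosis too, and Zbtb16 (3373 and 3388), which fat expressed in all 6 libraries. Others were higher in cold 12, such as Nanos3 (1 and 12 counts) and Gfra1 (45 and 81). The median ratio of the meiotic list lay below the 2.09 of the further spermatid genes.

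**Figure D3:**
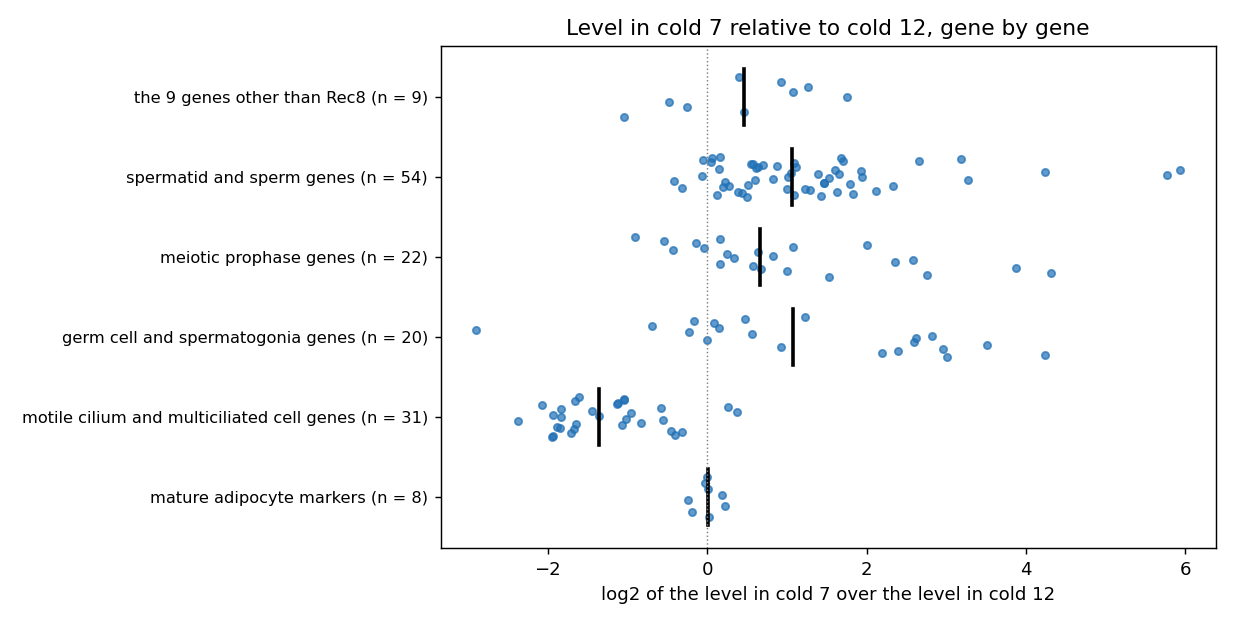
Log2 of the level in cold 7 over that in cold 12, with 1 point per gene that has at least 10 counts in the 2 libraries together and a bar at each list's median (0.5 added to each count). The median ratio is 2.09 for the further spermatid genes and 0.392 for motile cilium genes, and adipocyte markers lie close to 1 (1.00).

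Across all libraries, 44 of the 54 further spermatid genes had cold 7 and cold 12 above each of the other 4 libraries, against 8.07% of 24188 genes with at least 10 counts. Cold 7 was the highest library in 47 of the 54, against 19% of those genes. For 24 of the 54 the counts sufficed for the test of cold against ctrl over 17852 genes (quasi-likelihood test of edgeR, p-values adjusted by Benjamini and Hochberg). In it 2.89% of genes were called at an adjusted p under 0.05, 2.32% higher and 0.566% lower in cold. An unadjusted p under 0.05 was reached by 3148 of the 17852 genes. Of these 24 genes 4 rose, none fell, and the median log2 fold change was 1.08, against -0.01 over all genes tested. Of the 24 genes 3 (Crisp2, Meig1 and Spata18) passed the filter through the cold libraries alone, and 2 of these are among the 4 called. The list was chosen with earlier results known, so these counts and the median are a description. The genes that rose were Spa17, Meig1, Spata18 and Tcp11. Spa17, a sperm surface and fibrous sheath protein, had 144, 143 and 125 counts in the cold and 56, 42 and 35 in controls (log2 fold change 1.44, SE 0.22, adjusted p = 0.0282). Tcp11, needed for sperm motility in mice, had 316, 240 and 90 counts in the cold and 14, 22 and 11 in controls (3.62, SE 0.61, adjusted p = 0.0381).

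In these 4 genes cold 16 also lay above every control, which was not so for 5 of the 9 spermatid genes described first (Prm1, Tnp1, Odf1, Pgk2 and Akap4). The 4 were named because they were called, and a call favours genes with all cold libraries above the controls. Nothing is therefore read from this difference. Meig1, a gene of meiosis and sperm tail assembly, had 91, 62 and 33 counts in the cold and 0, 3 and 0 in controls (adjusted p = 0.0314 by edgeR). Spata18, a mitochondrial quality control gene known from spermatids, had 85, 78 and 21 counts in the cold and 2, 3 and 3 in controls (log2 fold change 4.30, SE 0.73, adjusted p = 0.033 by edgeR). The most abundant genes of the list did not all share this, with Odf2, which centrosomes use in other cells too, at 0.24 (adjusted p = 0.294), Ropn1l at 0.68 (adjusted p = 0.529) and Catsper2 at -0.10 (adjusted p = 0.847). The count of 4 fell to 0 without cold 12, without ctrl 6 or without ctrl 10, and to 2 without cold 16 or without ctrl 5. The calls over the whole table were likewise 0 without cold 12, ctrl 6 or ctrl 10. They were 3 of 18379 genes without cold 16 and 695 of 18516 without ctrl 5. With cold 12, ctrl 6 and ctrl 10 left out in turn, 9 of 24, 19 of 42 and 11 of 42 tested genes of the list had an unadjusted p under 0.05 by edgeR. Beside them stood 2546 of 18232, 3071 of 18644 and 2835 of 18650 genes over the whole table. Over all 54 genes the count was 14 by DESeq2. Of these, 8 had been tested by edgeR, beside 1272 genes called by DESeq2 among the 17852 tested by edgeR. Of the 10 meiotic prophase genes tested by edgeR none was called over all genes (median 0.51), and DESeq2 called 1 (Sycp3). At an unadjusted p under 0.05 by edgeR stood 3 of the 10, beside 3148 of all 17852 genes tested. Of 7 germ cell and spermatogonia genes the GDNF receptor gene Gfra1 rose (45, 81 and 88 counts in the cold, 21, 8 and 6 in controls, adjusted p = 0.034 by edgeR, median 0.33).

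Of the 10 genes followed here, 5 passed the filter on low counts (Rec8, Prm1, Prm2, Tnp2 and Odf1), and 5 did not (Tnp1, Ldhc, Pgk2, Smcp and Akap4). In the same fit 1 of the 10 was called, Rec8, beside the 2.32% of tested genes called higher and the 0.566% called lower in cold. Its adjusted p lay just under the threshold, and the call was lost without the low-count filter, with a transcript length offset and without cold 12, cold 16, ctrl 6 or ctrl 10. In 5 of the 10 genes (Prm2, Tnp2, Ldhc, Smcp and Rec8) every cold library lay above every control, beside 12.4% of genes with at least 10 counts. In Ldhc and Smcp this rests on cold 16 with 4 and 8 counts lying just above ctrl 6 with 3 and 6. Since the genes were picked by these levels, nothing is read from either count.

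Rec8 did not share the pattern of the other 9 genes. It had 138, 451 and 374 counts in cold 7, cold 12 and cold 16, against 42, 10 and 7 in ctrl 5, ctrl 6 and ctrl 10, or 12.3 ± 5.89 CPM in the cold and 0.847 ± 0.770 CPM in controls (SD, n = 3 each). All cold libraries lay above all controls, cold 7 was the lowest cold library and ctrl 5 the highest control. Rec8 made up 7.42% of the counts of the 10 genes in cold 7, 24.5% in cold 12 and 76.8% in cold 16, against 95.5% in ctrl 5, 9.62% in ctrl 6 and 20.6% in ctrl 10. The name of germ cell transcripts therefore fits its known role, but not its levels beside the other 9 genes in these libraries.

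Other meiotic cohesin subunits did not show Rec8's order either. Smc1b, the meiotic form of a cohesin arm protein, had 33, 5 and 0 counts in the cold and 0, 1 and 0 in controls, so cold 7 was highest, and the kleisin Rad21l had at most 2 counts in any library. Stag3 had 71, 27 and 45 counts in the cold and 14, 19 and 13 in controls (log2 fold change 1.44, SE 0.44, adjusted p = 0.126 by edgeR). Among 17 general cohesin subunits and regulators none was called by edgeR (median -0.06) or by DESeq2 (0). At an unadjusted p under 0.05 by edgeR stood 1 of the 17, beside 3148 of all 17852 genes tested. The mitotic kleisin Rad21 stood at -0.17 (SE 0.07, adjusted p = 0.245 by edgeR) and Smc1a at -0.05 (adjusted p = 0.825). The full-length Rec8-201 transcript carried 135, 418 and 330 of Rec8's counts in the cold and 38, 10 and 6 in controls. The intron-retaining Rec8-204 held 3, 21 and 28 counts in the cold and 2, 0 and 0 in controls. Of 42984 transcripts tested 0 were called (0%, with 3503 at an unadjusted p under 0.05 by edgeR).

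Genes next to Rec8 did not move with it. Within 20 kb, the importin Ipo4, which lies next to Rec8 on the opposite strand, had a log2 fold change of 0.05 with an SE of 0.11 (adjusted p = 0.870 by edgeR). Tm9sf1, beyond Ipo4 on the same side, stood at 0.03 (adjusted p = 0.884 by edgeR). On the other side Irf9, an interferon signalling factor, stood at -0.21 (adjusted p = 0.447) and Rnf31 at -0.28 (adjusted p = 0.109). The antisense gene Gm49747 stood at 0.07 (adjusted p = 0.905), and Gm49378 was too low to test. At the protamine locus, Socs1, the nearest gene outside the cluster, had 49, 85 and 76 counts in the cold and 104, 83 and 79 in controls, so it did not follow Prm1 and Prm2. Prm3 had 9, 7 and 2 counts in the cold and 0, 0 and 1 in controls, in the order of cold 7, cold 12 and cold 16.

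The 10 genes were then set beside Foxj1, the master transcription factor of motile cilia, and Crisp1, a secreted protein of the epididymal duct that coats sperm. Foxj1 had 507, 2171 and 2114 counts in cold 7, cold 12 and cold 16, against 248, 22 and 1 in ctrl 5, ctrl 6 and ctrl 10. It was not called (log2 fold change 3.95, SE 1.21, adjusted p = 0.183 by edgeR). Of 31 motile cilium genes tested by edgeR 7 rose and none fell (median log2 fold change 3.06), beside 2.32% of all genes called higher in cold, and 3 of these 7 had passed the filter through the cold libraries alone. The count was 0 without cold 12, cold 16, ctrl 6 or ctrl 10, where 24, 24, 22 and 28 of the genes still reached an unadjusted p under 0.05 by edgeR. It was 14 without cold 7 (beside 1090 of 18451 genes over all) and 22 without ctrl 5 (beside 695 of 18516). By DESeq2 it was 20, beside 1272 of the 17852 genes tested by edgeR. The 6 libraries stood for Foxj1 in the same order as those of Rec8, with cold 12 highest, then cold 16, cold 7, ctrl 5, ctrl 6 and ctrl 10. Rec8 was 21.4% of the counts of Rec8 and Foxj1 in cold 7 (exact 95% binomial interval 18.3 to 24.8%), 17.2% in cold 12 (15.8 to 18.7%) and 15% in cold 16 (13.6 to 16.5%), against 14.5% in ctrl 5 (10.6 to 19.1%). In ctrl 6 it was 10 of 32 counts and in ctrl 10 it was 7 of 8, so a low level of Rec8 was also seen where Foxj1 was nearly absent. Of the 9 other genes none had Foxj1's order: cold 16 held 2114 Foxj1 counts beside 113 counts of the 9 genes, and ctrl 5 held 248 beside 2.

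Crisp1 was almost wholly a transcript of 1 library. It had 2555, 0 and 3 counts in cold 7, cold 12 and cold 16, against 0, 1 and 5 in ctrl 5, ctrl 6 and ctrl 10. Cold 12 thus held 1390 counts of the 9 spermatid genes with no count of Crisp1, which at the limit of 3 counts allows up to 0.118 CPM, whereas cold 7 held 111.8 CPM of Crisp1 beside 75.3 CPM of the 9 genes. Other duct genes were also high in cold 7 alone, such as Adam7 (677, 1 and 34 counts in the cold, 11, 0 and 0 in controls) and Wfdc10 (219, 0 and 1 in the cold, 0, 1 and 0 in controls). The 28 duct secretory genes summed to 201, 30.9 and 30.2 CPM in the cold and to 52.5, 52.5 and 45.2 CPM in controls. Much of the sum outside cold 7 is Sult1e1, an oestrogen sulfotransferase that fat itself expresses and that fell in the cold (log2 fold change -0.67, adjusted p = 0.0312 by edgeR), and 6 of the 28 were at 0 in all libraries. Seminal vesicle genes were high in ctrl 10, with Svs5 at 4, 3 and 18 counts in the cold and 2, 1 and 1255 in controls and none of the 9 genes of that list tested, so ctrl 10 alone held that signal. Of 13 duct genes with at least 10 counts, 2 had cold 7 and cold 12 above the other 4 libraries, against 8.07% of all such genes. They were Cst8 (25, 6 and 1 counts in the cold, 0, 0 and 1 in controls) and Eddm3b (27, 11 and 9 in the cold, 4, 1 and 0 in controls).

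**Figure D4:**
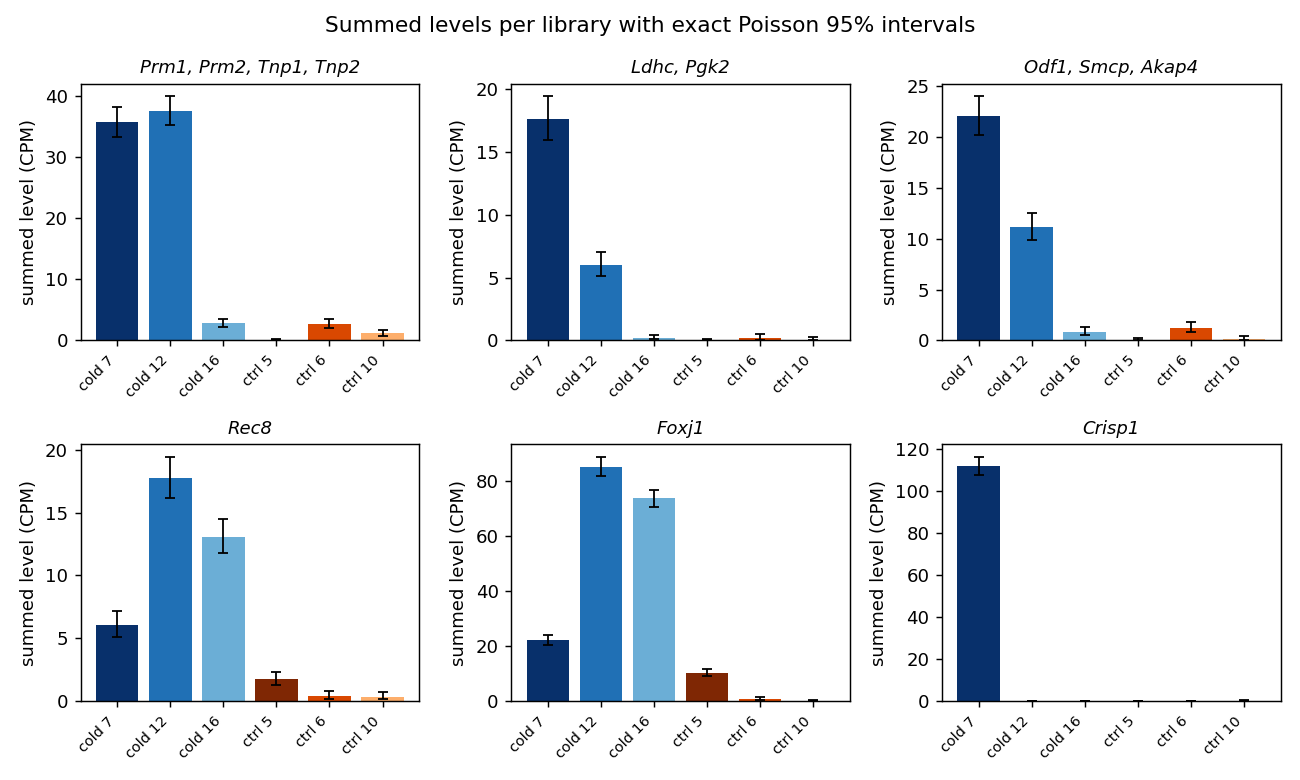
Summed level in CPM (linear axes from 0) of each group of genes in the 6 libraries, with exact 95% Poisson intervals as bars, or a bar up to the limit of 3 counts where a library has none. The packaging genes are at 35.6 and 37.5 CPM in cold 7 and cold 12 and under 3 CPM elsewhere, Rec8 and Foxj1 are highest in cold 12 and cold 16, and Crisp1 is high in cold 7 alone.

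Likeness was also measured over all genes, as the Pearson correlation of log2 CPM over the 6 libraries, among 13439 tested genes that carry a proper name and average 1 CPM or more. It is a description without a test, since all values share the same 6 libraries and their groups. The genes most like Rec8 were Chrna2, Pip5k1b, Cited4, Plet1, Gfra1, Gipc2, Pla2g5 and Atl2, with r between 0.997 and 0.999. Foxj1 had r = 0.94 with Rec8 and stood in place 565, and among the first 100 genes were 5 of 30 motile cilium genes and 0 of 22 spermatid genes. For the mean of the other 9 genes the first 100 held 10 of the 22 spermatid genes and 0 of the 30 cilium genes, with Gsg1, Crisp2 and Oaz3 in places 1, 4 and 7. A correlation does not weigh the size of a change. The 10 also hold Calr3 and Odf2, whose log2 fold changes of cold against ctrl were 0.15 and 0.24. Places 2 and 3 went to Pla2g7 and Hnrnpu, which are on none of the lists and had at least 268 and 7098 counts in every library. Singly, the 9 genes had r of 0.31 (Prm1) to 0.67 (Smcp) with Foxj1 and of 0.36 (Prm1) to 0.61 (Ldhc) with Crisp1.

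Markers of other testis cells were read for the same libraries. The 8 Leydig cell markers summed to 27.9, 17.0 and 16.0 CPM in cold 7, cold 12 and cold 16, against 20.6, 16.6 and 15.5 CPM in ctrl 5, ctrl 6 and ctrl 10. Among them Cyp17a1, the enzyme that commits steroids to androgens, had 48, 6 and 7 counts in the cold and 3, 6 and 1 in controls. Cold 7 was the highest library after scaling in 5 of the 8 Leydig markers, against 19% of all genes with at least 10 counts. Among these 5, Insl3 had 307, 243 and 250 counts in the cold and 186, 229 and 160 in controls. Star, also among them, had 199, 122 and 134 counts in the cold and 202, 89 and 101 in controls, so ctrl 5 lay close to cold 7. Lhcgr was lowest in cold 7, with 15, 33 and 37 against 29, 30 and 26. The 12 Sertoli cell markers summed to 107, 105 and 122 CPM in the cold and to 122, 98.4 and 117 CPM in controls, mostly from Inhbb and Sox9. The FSH receptor Fshr was near 0, with 2 counts in cold 7 and 0 elsewhere, as was Rhox5 with 6, 0 and 0 counts in the cold and 1, 0 and 0 in controls. Gata1 had 11, 0 and 0 counts in the cold and 3, 1 and 2 in controls, and Tsx had 13, 2 and 3 against 3, 2 and 0. The remaining Sertoli markers were present in all libraries. Cold 7 was the highest library in 6 of the 10 Sertoli markers with at least 10 counts, against 19% of all such genes. Dhh had 109, 91 and 131 counts in the cold and 89, 72 and 108 in controls, and Cldn11 had 138, 54 and 65 against 56, 23 and 80. Of the 4 Leydig and 7 Sertoli genes tested by edgeR none was called, and DESeq2 called 0 and 2. At an unadjusted p under 0.05 by edgeR stood 0 of the 4 and 2 of the 7, beside 3148 of all 17852 genes tested. The part of Leydig or Sertoli cells, of duct tissue or of ciliated cells in the levels of the 10 genes was not tested.

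The assignment of counts to transcripts differed between libraries for some of the genes. In ctrl 10 all 5 counts of Prm1 were assigned to Prm1-202, whose annotation reaches 10805839, whereas in cold 7, cold 12 and cold 16 all 106, 244 and 5 were assigned to Prm1-201. All 8 Smcp counts of cold 16 were assigned to Smcp-202, whereas cold 7 and cold 12 had 202 and 93 on Smcp-201 and 0 on Smcp-202. Akap4 was split, with 19, 17 and 0 counts on Akap4-201 and 80, 66 and 7 on Akap4-203 in the cold, and 0, 0 and 0 against 0, 9 and 1 in controls. At such counts the sharing of reads between overlapping transcripts is an estimate whose error is not in these files.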

How the data were processed

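Fat RNA of 3 cold and 3 ctrl mice was made into directional libraries and read from both ends over 50 nt, per the labels' protocols. The submitters' processing notes name Salmon, cutadapt, bcl2fastq and GRCm38, without versions of the tools. Each deposited table lists 140658 transcripts of 1 library. The deposited estimated counts need not be whole, and the deposited TPM values are scaled for effective length and depth; TPM was used to compare genes within a library and was not tested.

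Identifiers were joined to GENCODE M21 (GRCm38), of which 140137 matched, 139921 with their version. The 521 others, with 0.124 to 0.394% of a library's counts, name no gene and were left out. Counts were summed per gene and rounded. Genes with at least 10 counts in enough libraries (filterByExpr, minimum total 15) were tested with edgeR 4.0.16 in R 4.3.3 (TMM, glmQLFit with robust estimation, glmQLFTest, two-sided, no covariate), with p-values adjusted over all genes tested. SE values come from the quasi-likelihood F statistic. CPM uses TMM-scaled sizes, and 0.5 was added to counts on log scales. A share or level of 0 is limited by 3 counts. An exact permutation test of 3 against 3 cannot go below p = 0.1, so none was used.

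The 10 genes and all 11 other lists were chosen with earlier results of these data known. Genes were named by rule: the 10 genes, Foxj1 and Crisp1, annotated genes within 20 kb of Rec8, the 8 genes most like Rec8, and from each list the called genes and up to 4 of the highest. Other genes, the neighbours of Prm1, the comparison of cold 7 with cold 12 and the likeness to the other 9 genes were chosen after values were seen. Alternatives were DESeq2 1.42.0 with its own filtering, RLE factors, no low-count filter, a transcript length offset and leaving out libraries. The steps were tested on simulated data. Upstream sequences are RefSeq's (GRCm38.p6).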

Additional observations from a re-analysis of the deposited data

How the results depend on the processing

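The number of genes called over the whole table was 516 and depended on the setting, with 924 without the low-count filter, 1418 by DESeq2, 0 to 1090 by edgeR with 1 library left out, and 21 with cold 7 and cold 12 both left out, an alternative chosen after seeing the data. By edgeR it was 0 without cold 12, without ctrl 6 and without ctrl 10, where an unadjusted p under 0.05 was reached by 2546, 3071 and 2835 genes. The 1418 calls by DESeq2 were among 34880 genes with any count. Of the 10 genes 1, Rec8, was called by edgeR with all libraries. By edgeR none was called without the low-count filter (0, with 6 at an unadjusted p under 0.05) or with the transcript length offset (0, with 5), 5 were called by DESeq2 (Rec8, Ldhc, Pgk2, Smcp and Tnp2), 0 to 1 with 1 library left out and 0 without cold 7 and cold 12. The log2 fold change of Rec8, 3.81 with all libraries, was 3.81 without the filter, 3.88 with the length offset, 3.47 to 4.91 with 1 library left out (3.47 without cold 12, 4.91 without ctrl 5) and 3.91 without cold 7 and cold 12, where 1 cold library is assumed to vary like the controls. The further spermatid genes called numbered 4, and 14 by DESeq2, 0 to 4 with 1 library left out and 0 without cold 7 and cold 12. The cause was not tested. No direction of Rec8 or of its main transcript turned under these alternatives. Summed counts of the 10 genes stayed within counting error without rounding and with versioned identifiers alone. No paired analysis was possible because the groups share no mouse numbers. Of the 9 genes other than Rec8, 9, 9 and 7 had more than 3 counts in cold 7, cold 12 and cold 16, against 0, 7 and 3 in ctrl 5, ctrl 6 and ctrl 10. Such low counts limit what can be said of single genes in the controls.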
